A study of Sus scrofa with 8 samples.

Results

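SPP1, IL2RA, IKBKG, PGLYRP2 and ICAM1 are 5 immune and macrophage-linked genes among the 458 genes for which normalized counts of each pig were given, and they were taken by exact match of the gene symbol. RNA came from the dorsal subcutaneous fat of purebred castrated male pigs of 2 local Portuguese breeds, 4 Alentejano (AL, replicates 44, 49, 52 and 63) and 4 Bísaro (BI, replicates 25, 34, 36 and 37), with 1 stranded paired-end mRNA library per pig. The sample labels give a carcass weight of 150 kg, whereas the study's methods describe it as the body weight at slaughter, and both breeds were reared free range and fed commercial diets ad libitum. The AL pigs spent longer on trial on average, so that breed and time on feed cannot be told apart.

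Fat is home to resident immune cells as well as adipocytes, and macrophages are the best known of them in obesity. SPP1 encodes osteopontin, a secreted matrix protein that binds integrins and CD44 and draws macrophages. IL2RA (CD25) is the chain that gives the interleukin-2 receptor its high affinity on activated and regulatory T cells. IKBKG (NEMO) is the regulatory subunit of the IKK kinase that frees NF-kB from its inhibitors. PGLYRP2 is an amidase that cuts bacterial peptidoglycan, and ICAM1 is the adhesion molecule of activated endothelium that the beta2 integrins of leukocytes bind.

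SPP1, IKBKG and PGLYRP2 were overexpressed in AL, and IL2RA was overexpressed in BI. ICAM1 had the higher mean in BI, but its breeds overlapped. Here log2 FC is the difference of the mean log2(normalized count + 1), AL minus BI, which understates the change of genes with few counts, and p was computed by exact permutation (two-sided) of the breed labels in all 70 ways. The smallest p that this design can give is 0.029, and it is reached only where the breeds do not overlap. All 458 genes had been called for a breed difference in the same pigs, so that these p-values describe how far the pigs lie apart and are not independent evidence. No overlap between breeds was seen in 4 of the 5 genes (80%), and the background share was nearly the same, with 364 of all 458 genes (79.5%). Of the 458 genes, 48.3% were higher in AL without overlap and 31.2% were higher in BI, so that 60.7% of the calls were towards AL. Rescaling over the 458 genes themselves lowered that share to 37.4% with a median of ratios and 25.4% with an upper quartile, and moved the median log2 FC of all genes by -0.51 and -0.65. The median size of the log2 FC was 1.53 over the 5 genes and 1.19 over all 458.

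**Figure D1:**
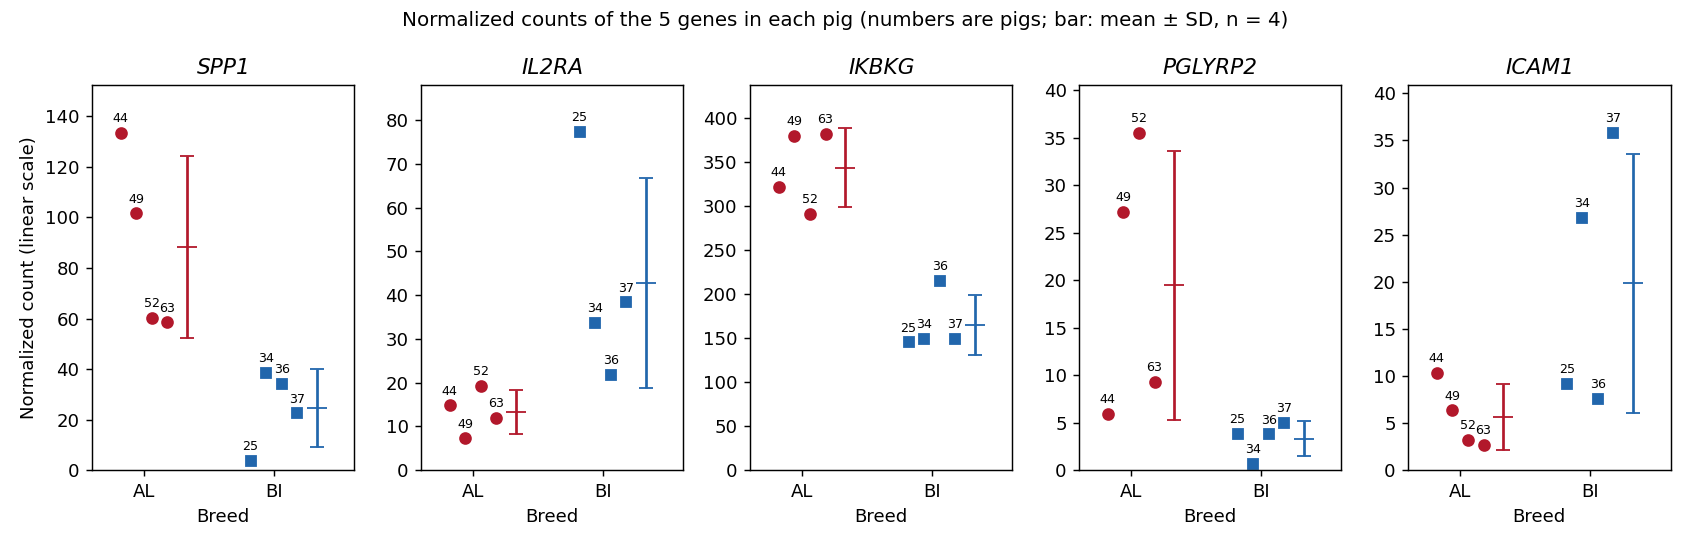
Normalized counts on linear axes that start at 0, with 1 panel per gene, 1 point per pig labelled by its replicate number, AL as circles and BI as squares, and the mean ± SD (n = 4) beside them. All AL points lie above all BI points for SPP1, IKBKG and PGLYRP2 and below them for IL2RA, whereas for ICAM1 AL replicate 44 (10.4) lies above BI replicates 25 (9.18) and 36 (7.56).

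Dividing the values of a pig by the value of 1 read gave whole numbers, with no value off by more than 1.1e-05 of a read, although 5 of the 8 pigs had fewer than 100 values of 20 reads or fewer to check this on. The size factors recovered from that step were 0.675 to 1.10 in AL and 1.06 to 1.46 in BI (exact permutation test, two-sided, p = 0.057), and the reads counted over the 458 genes numbered 359708 to 883622 in a pig. Confidence intervals printed here are exact Poisson intervals and cover counting error only. In bulk tissue, fewer cells of a type and less RNA per cell cannot be told apart.

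SPP1 (ENSSSCG00000009216) lies on the minus strand of chromosome 8 in Sscrofa11.1, at chr8:131077786-131085334, with 7 exons in its longest RefSeq transcript. Its normalized counts were 133, 102, 60.2 and 58.4 in AL replicates 44, 49, 52 and 63, and 3.82, 38.5, 34.01 and 22.5 in BI replicates 25, 34, 36 and 37. Every AL pig exceeded every BI pig, and BI replicate 25 stood far below the other BI pigs. AL pigs averaged 88.4 ± 35.98 and BI pigs 24.7 ± 15.5 (mean ± SD, n = 4 each), a ratio of means of 3.58. On the log2 scale this was a difference of 2.08 with a standard error of 0.76 (exact permutation p = 0.029, Benjamini-Hochberg adjusted p = 0.036 over the 458 genes).

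The highest and lowest BI pigs differed by 10.1-fold in SPP1, and 98.0% of the 458 genes had the same or a smaller SD between BI pigs on the log2 scale. BI replicate 25 rested on 5 SPP1 reads, whereas the other BI pigs held 27 to 56. Without that pig the log2 FC was 1.40, and leaving out a pig cannot create overlap between the breeds. In AL the spread was smaller, at 2.28-fold between the extremes. After rescaling over the 458 genes, the breeds overlapped in SPP1 (log2 FC 1.60 with a median of ratios and 1.47 with an upper quartile).

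IL2RA (ENSSSCG00000022849) lies at chr10:64948149-65001320 on the plus strand, with 8 exons. Its normalized counts were 14.8, 7.25, 19.4 and 11.95 in AL replicates 44, 49, 52 and 63, against 77.2, 33.7, 21.7 and 38.3 in BI replicates 25, 34, 36 and 37. All BI pigs were above all AL pigs, although AL replicate 52 and BI replicate 36 came close, with 18 and 23 reads. The mean of 42.7 ± 24.0 (SD, n = 4) in BI was 3.20 times the 13.3 ± 5.07 (SD, n = 4) in AL. On the log2 scale this was a difference of -1.53 with a standard error of 0.46 (exact permutation p = 0.029, adjusted p = 0.036). BI replicate 25, the pig lowest in SPP1, was the highest in IL2RA. Without it the log2 FC of IL2RA was -1.21.

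IKBKG (ENSSSCG00000012825) lies at chrX:125035575-125056445 on the plus strand, with 11 exons in its longest transcript. Its normalized counts were 321, 380, 291 and 382 in AL replicates 44, 49, 52 and 63, and 145, 149, 215 and 149 in BI replicates 25, 34, 36 and 37. The AL pigs lay together above the BI pigs, and BI replicate 36 stood apart from the other BI pigs towards AL. AL pigs averaged 344 ± 44.9 and BI pigs 165 ± 33.8 (mean ± SD, n = 4 each), a ratio of 2.09. On the log2 scale this was a difference of 1.07 with a standard error of 0.17 (exact permutation p = 0.029, adjusted p = 0.036), beside a median of 0.83 over all 458 genes. IKBKG had the smallest relative spread of the 5 genes and rested on 2009 reads in all. When the values were rescaled over the 458 genes themselves, its log2 FC was 0.55 by median of ratios and 0.42 by upper quartile, again without overlap.

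PGLYRP2 (ENSSSCG00000025560) lies at chr2:62135578-62140180 on the plus strand, with 5 exons. Its normalized counts were 5.93, 27.2, 35.5 and 9.30 in AL replicates 44, 49, 52 and 63, and 3.82, 0.687, 3.78 and 5.0 in BI replicates 25, 34, 36 and 37. AL replicates 49 and 52 were far above all other pigs, whereas AL replicate 44 exceeded the highest BI pig by less than the value of 1 read. These values rest on 4, 30, 33 and 7 reads in AL and on 5, 1, 4 and 6 reads in BI. The 95% Poisson interval of AL replicate 44 (1.61 to 15.2) held the values of 3 of the 4 BI pigs, whereas that of AL replicate 49 (18.4 to 38.8) held none. AL pigs averaged 19.5 ± 14.2 and BI pigs 3.32 ± 1.85 (mean ± SD, n = 4 each). On the log2 scale this was a difference of 2.07 with a standard error of 0.71 (exact permutation p = 0.029, adjusted p = 0.036). Between AL pigs, 99.1% of the 458 genes had the same or a smaller SD on the log2 scale. The AL pigs low in PGLYRP2, replicates 44 and 63, also had the lowest size factors of the 8 pigs, 0.675 and 0.753, and the part of depth was not tested. After rescaling over the 458 genes, the breeds overlapped in PGLYRP2 as well (log2 FC 1.68 and 1.57), and with a pseudocount of 10 its log2 FC was 1.02.

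RASAL3, a Ras GTPase-activating protein of blood cells, begins 2188 bases downstream of PGLYRP2 on the same strand. Its normalized counts were 59.3, 87.1, 138 and 73.0 in AL replicates 44, 49, 52 and 63, and 9.18, 22.0, 24.6 and 53.3 in BI replicates 25, 34, 36 and 37. The breeds did not overlap in RASAL3 either (log2 FC 1.85, standard error 0.56), and AL replicates 52 and 49 were the highest pigs in both genes. Any reads shared between these neighbours could not be told apart here.

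ICAM1 (ENSSSCG00000013655) lies at chr2:69097136-69107722 on the plus strand, with 7 exons. Its normalized counts were 10.4, 6.35, 3.23 and 2.66 in AL replicates 44, 49, 52 and 63, and 9.18, 26.8, 7.56 and 35.8 in BI replicates 25, 34, 36 and 37. BI replicates 34 and 37 were high, BI replicates 25 and 36 lay within the range of AL, and the breeds overlapped. The AL values rest on 2 to 7 reads per pig and the BI values on 8 to 43. AL pigs averaged 5.65 ± 3.54 and BI pigs 19.8 ± 13.8 (mean ± SD, n = 4 each). Its log2 FC was -1.53 (standard error 0.64), and the exact permutation test did not reach 0.05 (p = 0.086, adjusted p = 0.088). Without AL replicate 44 the breeds did not overlap (log2 FC -1.84, exact permutation p = 0.057). After upper quartile rescaling the breeds did not overlap either (log2 FC -2.10). With limma over the 458 genes, ICAM1 passed (adjusted p = 0.019), as did 456 of the 458 genes (99.6%) and the other 4 genes described here.

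**Figure D2:**
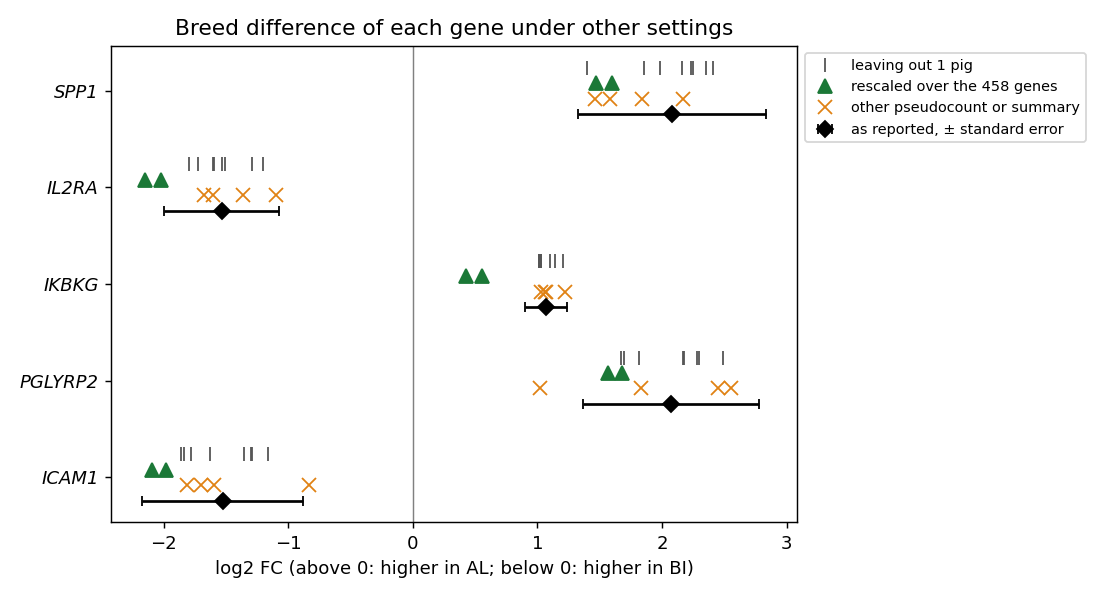
The log2 FC of each gene on the horizontal axis (above 0, higher in AL), as reported with its standard error (diamonds), with each pig left out in turn (ticks), rescaled over the 458 genes (triangles), and with other pseudocounts or summaries (crosses). No value crosses 0, and the rescaled values of all 5 genes lie to the left of the reported ones.

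Set against exon length, IKBKG was the most abundant of the 5 genes in both breeds, at a mean level of 64.3 normalized counts per kb of exon in AL and 30.8 in BI. SPP1 followed with 57.5 per kb in AL and 16.1 in BI, and in AL its pigs overlapped those of IKBKG and in BI those of IL2RA. PGLYRP2 came next in AL with 10.3 per kb, overlapping IL2RA, but last in BI with 1.76, where its pigs lay below those of ICAM1 without overlap. IL2RA had 2.61 per kb in AL and 8.36 in BI, and ICAM1 2.32 and 8.14, and these genes did not differ beyond the spread of their pigs in either breed.

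ICAM1 is known as a target of NF-kB, the pathway of IKBKG, and SPP1 showed the opposite direction between the breeds, so the 250 bases before the annotated start of each gene are printed from the Sscrofa11.1 genome of RefSeq, 5′ to 3′ on the strand of the gene, at chr2:69096886-69097135 (plus) and chr8:131085335-131085584 (minus). Capitals mark matches to the NF-kB consensus (first) and to the STAT letters TTCNNNGAA (second).
ICAM1: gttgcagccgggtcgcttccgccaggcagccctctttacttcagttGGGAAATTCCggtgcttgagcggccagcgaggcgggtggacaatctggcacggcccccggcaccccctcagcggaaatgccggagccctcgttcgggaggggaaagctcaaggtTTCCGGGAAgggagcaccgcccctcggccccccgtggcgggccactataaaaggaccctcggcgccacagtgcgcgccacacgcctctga
SPP1: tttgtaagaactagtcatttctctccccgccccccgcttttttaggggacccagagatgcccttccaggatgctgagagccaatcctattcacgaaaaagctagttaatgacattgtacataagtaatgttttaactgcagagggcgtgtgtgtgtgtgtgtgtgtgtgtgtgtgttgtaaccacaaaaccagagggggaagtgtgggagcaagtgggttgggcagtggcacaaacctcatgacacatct
In the ICAM1 window the NF-kB match GGGAAATTCC begins 204 bases before the start and the STAT match TTCCGGGAA begins 90 bases before it. IKBKG held GGGAACTTCC and PGLYRP2 held GGGGAGCCCC as matches to the NF-kB consensus. No match to either motif, or to the AP-1 letters TGANTCA, was in the windows of SPP1 and IL2RA. Searched on both strands in 19556 promoter windows of 300 bases (250 before the start and 50 after it), the NF-kB consensus was in 16.4%, the STAT letters in 7.12% and the AP-1 letters in 6.07%. A match describes the reference letters and not a bound site.

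Of the partners of these genes, most had an authors' mean over the 8 pigs without values per pig. They were not among the genes that the authors called, and the size of any breed difference cannot be given for them here. For osteopontin, 7 of 14 receptors and related secreted proteins were listed, led by the integrin chains ITGB5 (authors' mean 54.8), ITGA5 (28.4) and ITGB1 (21.5), with CD44 at 7.75. For the interleukin-2 receptor, the shared gamma chain IL2RG had an authors' mean of 274 and the transcription factors STAT5A and STAT5B had 2873 and 27.2, whereas IL2RB was not listed. STAT5A and STAT5B are near-identical paralogs that overlap on opposite strands, and IL2RG shares exon bases with MED12 on the opposite strand, so that these levels are uncertain, since the strand setting of the counting is not given in the sources used here.

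Of 24 genes of the IKK complex and NF-kB, 23 were listed. The kinases that IKBKG joins, IKBKB and CHUK, had authors' means of 8.16 and 6.94, against 254 for IKBKG itself, and the NF-kB subunit RELA had 487. SHARPIN, a subunit of the linear ubiquitin ligase that acts on IKBKG, was the only gene of this list with values per pig. AL pigs averaged 6500 ± 386 and BI pigs 3634 ± 1035 (mean ± SD, n = 4 each), without overlap (log2 FC 0.88, standard error 0.20). RNF31, the catalytic subunit of the same ligase, had an authors' mean of 1936. On the opposite strand, MAF1 lies 178 bases from SHARPIN, although the exons of SHARPIN overlap none there. IKBKG shares 185 exon bases with a gene on its opposite strand. The part of such neighbours in these levels was not tested.

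Among 9 genes of peptidoglycan recognition, 5 were listed and PGLYRP1, a secreted peptidoglycan-binding protein of neutrophils, had values per pig. It moved opposite to PGLYRP2, at 230 ± 4.46 in AL against 374 ± 75.4 in BI (mean ± SD, n = 4 each), without overlap (log2 FC -0.68, standard error 0.15). CD14, the coreceptor for bacterial lipopolysaccharide, had an authors' mean of 43.7. For ICAM1, 5 of 14 integrins, selectins and other adhesion molecules were listed and none had values per pig, with ITGAM at 262, PECAM1 at 130.5 and ITGB2 at 19.0 as the highest authors' means. ITGAM shares 106 exon bases with a gene on its opposite strand, and the part of that gene was not tested.

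The macrophage link of these genes could not be checked against macrophage markers per pig. Of 16 macrophage markers, 10 were listed with authors' means from 3.87 to 1385, and none was among the 458 genes. CSF1R had 1385, CD68 50.6, C1QA 51.2 and CD163 4.25. HMGXB3 lies 111 bases from CSF1R on the opposite strand, and its part in that level was not tested. Of 13 T cell markers, 2 were listed, FOXP3 with 499.5 and CD247 with 167, and FOXP3 shares exon bases with CCDC22 on the opposite strand. None of 4 B cell markers was listed, and 2 of 5 NK cell, 2 of 6 neutrophil and 1 of 5 mast cell markers were, none with values per pig.

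Of 10 endothelial markers 8 were listed, and the pair with values per pig, TIE1 and CLEC14A, were both higher in BI without overlap (log2 FC -1.41 and -1.06). Their summed normalized counts ranged from 28.0 to 34.5 in the AL pigs and from 45.8 to 96.4 in the BI pigs. Both genes were called for a breed difference in these pigs, so that their sum is no independent measure of endothelial content. Within BI, replicate 37 was highest in ICAM1 and lowest in TIE1 and CLEC14A, whereas replicate 25 was highest in both markers and low in ICAM1. The other listed endothelial markers had no values per pig, and a link of endothelial content to IL2RA or ICAM1 was not tested. All 10 adipocyte markers were listed, led by PLIN1 with an authors' mean of 1567. The sum of LEP, FABP4 and CEBPA, the adipocyte markers with values per pig, was 1080 to 1501 in AL and 523 to 755 in BI, and FABP4, the only one without overlap (log2 FC 1.10), was higher in AL as SPP1, IKBKG and PGLYRP2 were, and its part was not tested. LEP, FABP4 and CEBPA were likewise called for a breed difference in these pigs, so that their sum is no independent measure of adipocyte content. The other 7 adipocyte markers were not among the called genes, and no breed difference can be given here for them. Of 7 skeletal muscle markers 4 were listed, and the muscle myosin MYH7 overlapped between the breeds, with 0.907 to 9.30 in AL and 4.72 to 40.5 in BI. Of 4 skin epithelium markers 1 was listed.

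Among 20 other immune-linked genes of the 458, 11 were higher in AL without overlap, 6 were higher in BI and 3 overlapped, with a median log2 FC of 0.95 beside 0.83 over all 458 genes. The share without overlap was 85%, near the 79.5% of all 458 genes. The highest in AL were A2M, a broad protease inhibitor of plasma (log2 FC 3.21), and GPR171, a G protein-coupled receptor (2.52). Towards BI, the butyrophilin-like BTNL9 had -1.48. SPP1 and PGLYRP2 stood between GPR171 and RASAL3 in this order, and IL2RA and ICAM1 lay farther towards BI than BTNL9.

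**Figure D3:**
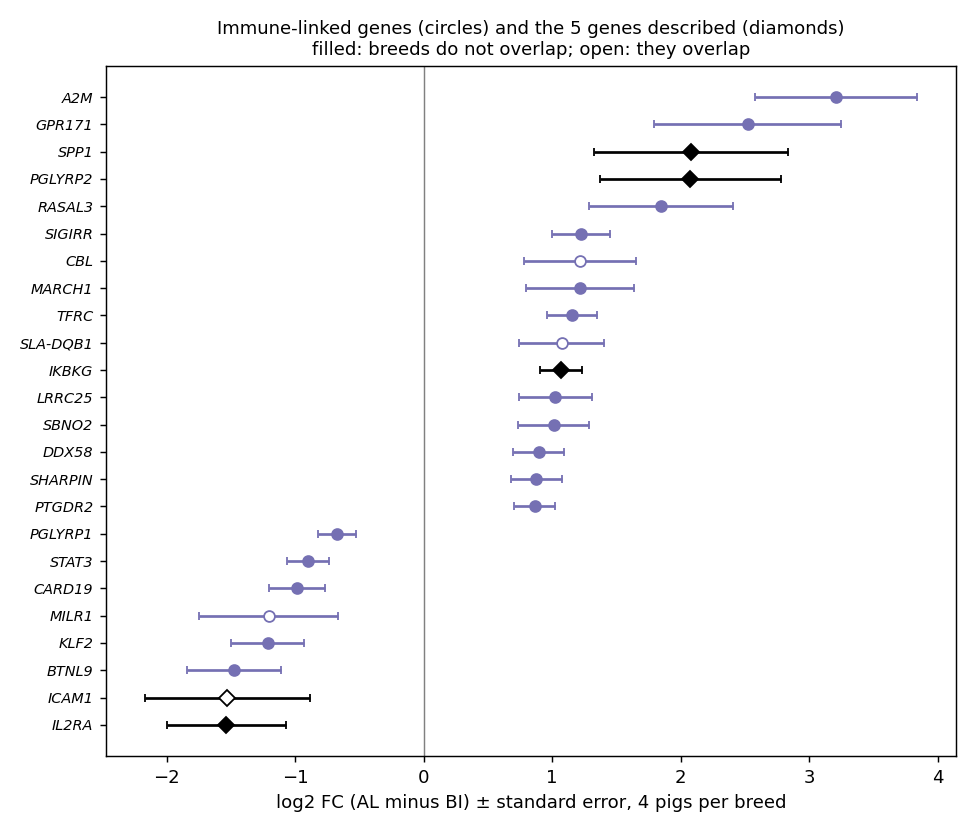
The log2 FC ± standard error (4 pigs per breed) of 19 of the 20 immune-linked genes (circles) and of the 5 genes described (diamonds), with filled symbols where the breeds do not overlap. The genes plotted lie on both sides of 0, from IL2RA at -1.53 to A2M at 3.21.

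All 5 genes belong to the study's lists of inflammatory response and of leukocyte activation, which were chosen on these samples and are not independent evidence of a direction. Of the 26 other genes of inflammatory response, 10 were higher in AL without overlap, 7 were higher in BI and 9 overlapped, with a median log2 FC of 0.84. No overlap was thus seen in 65.4% of them, against 79.5% of all 458 genes. The highest values were those of PXK (2.59) and THBS4 (2.39). ATF3, a stress-induced transcription factor, had the lowest log2 FC (-2.17), with overlap. Of the 21 other genes of leukocyte activation, 6 were higher in AL, 5 were higher in BI and 10 overlapped, with a median of 0.81. The share without overlap was 52.4% in this list, also below that of all genes. Its extremes, MT-ND4L (1.86) and PLEKHA2 (1.59) towards AL and ATF3 and ITPKC (-2.02) towards BI, all overlapped between the breeds.

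IKBKG and ICAM1 are in the study's CD40 pathway list, where FOS (log2 FC -1.21) and STAT3 (-0.90) were higher in BI without overlap and PIK3R4 (-1.22) overlapped. IKBKG was thus the only gene of that list with a higher mean in AL. IL2RA is in the IL-2 pathway list, beside the adaptor SHC1 (log2 FC 0.87, higher in AL without overlap), FOS and PIK3R4.

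**Figure D4:**
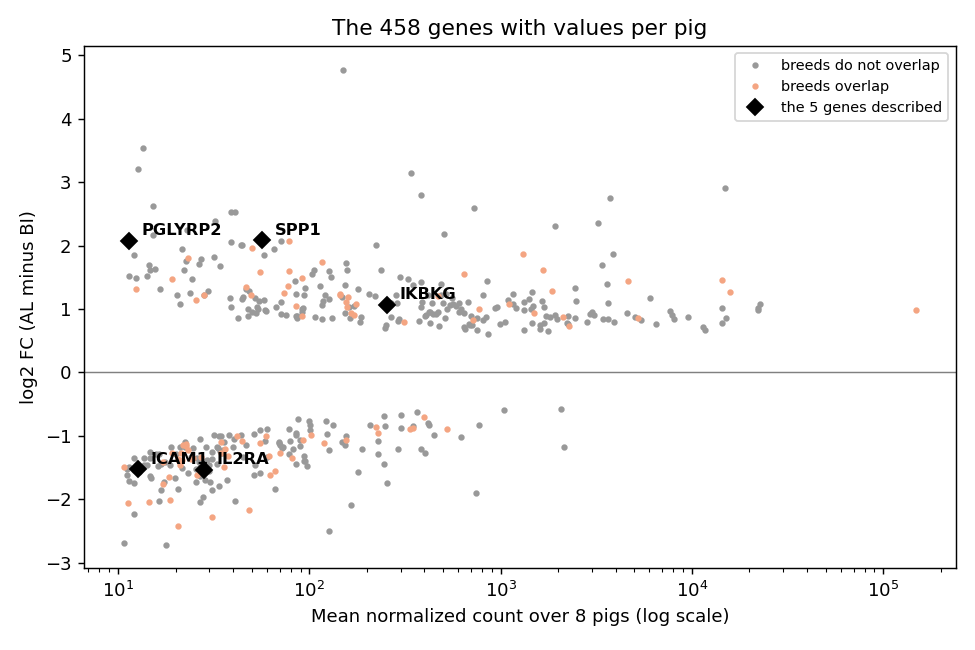
The log2 FC (AL minus BI) of the 458 genes against their mean normalized count over the 8 pigs on a log axis, in grey where the breeds do not overlap and in orange where they overlap, with the 5 genes as diamonds. ICAM1, IL2RA and PGLYRP2 lie among the genes of low counts, and IKBKG is the highest in mean count (254).

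The genes whose values followed each member most closely from pig to pig were found by Pearson's r of the log2 values after subtraction of the breed mean, over 8 pigs that share library and size factor among all genes. For SPP1 they were NELFCD (0.94), CSTB (0.94) and CACNB2 (0.89), of which CACNB2 had its higher mean in BI. Spearman's rho was lower for these genes, at 0.74, 0.90 and 0.67. For IL2RA they were PXDN (0.90), DCDC2B (0.89) and PIDD1 (0.87), all with higher means in BI. For IKBKG they were SDR16C5 (0.88), DNAI1 (0.85) and C11orf1 (0.82), all with higher means in AL. SLC16A11 (0.91), RAI1 (0.91) and STYXL1 (0.84), all with a positive log2 FC, were the closest to PGLYRP2. DIDO1 (0.85), ZSWIM4 (0.85) and ALKBH4 (0.84) were the closest to ICAM1, and of these ALKBH4 had its higher mean in AL. These genes are named as a description, with no test.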

How the data were processed

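RNA of dorsal subcutaneous fat from 4 AL and 4 BI pigs was sequenced. The authors trimmed the reads with Trim Galore 0.5.0, aligned them to Sscrofa11.1 with HISAT2 2.1.0 and SAMtools 1.9, counted them per gene with HTSeq 0.11.1 and compared the breeds with DESeq2. The deposited expression signal per pig is the count divided by the size factor of that pig, given by the authors only for the 458 genes they called. A deposited table of 10710 genes gives 1 mean count over the pigs per gene (median 13.7), a mean of the same signal, used here as the authors' mean. Its fold changes, errors, test statistics and p-values are those of the authors' comparison and were not used. Symbols were matched for 8923 genes (83.3%).

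The members and lists were chosen with earlier results of these data known. Named genes are the 5 members, list genes with values per pig where a list holds 5 or fewer (otherwise the 2 farthest in each direction), the highest and defining genes among those with a mean only, and the 3 genes most alike to each member. A few single genes are not reported here. RASAL3 was named as a neighbour after its values were seen. Overlap, the exact permutation test and Benjamini-Hochberg adjustment were computed over the 458 genes with a pseudocount of 1. Each SD holds both the counting error and the spread between pigs. Calculations were tested on simulated data. Positions and sequences are from RefSeq. Python 3.11.15, SciPy 1.17.1, pysam 0.24.0, Matplotlib 3.10.9, R 4.3.3 and limma 3.58.1 were used. Alternatives were other pseudocounts, scalings, summaries, tests and count limits, and leaving out each pig.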

Additional observations from a re-analysis of the deposited data

Results flagged for a closer look

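The value of IKBKG in BI replicate 36 (215) stood apart from the other 3 BI pigs (145 to 149) by Dixon's ratio at the 95% level. It lay on the side of AL, and without that pig the log2 FC was 1.20. Among the other genes named, MT-ND4L in BI replicate 37 (1687), THBS4 in BI replicate 34 (24.0) and LEP in BI replicate 36 (86.0) were also set apart as the highest of their 4 BI pigs. In all, 4 of 56 groups of 4 pigs were set apart, where chance gives about 5%.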

How the results depend on the processing

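The direction of each of the 5 genes was the same under all alternatives run. Of the 82 values of single genes under an alternative, 75 also kept their call (no overlap between the breeds, or the test itself for the rank-sum test and limma). Most of these calls could not change. Other pseudocounts or summaries, the rank-sum test and the count limit leave the overlap of the pigs as it was. Leaving out a pig cannot create overlap. Only the rescalings, limma and ICAM1 with a pig left out could change a call, so that the 75 are no measure of robustness. Rescaling over the 458 genes, which were themselves chosen for a breed difference, moved the median log2 FC of all genes by -0.51 with a median of ratios and by -0.65 with an upper quartile. SPP1 then overlapped (log2 FC 1.60 and 1.47), as did PGLYRP2 (1.68 and 1.57), whereas ICAM1 lost its overlap with the upper quartile (-2.10) and passed in limma (-1.53). The genes without overlap were 2 of the 5 with the median of ratios and 2 when genes needed a mean of 50 or more, a limit that only SPP1 and IKBKG reached. Over all 458 genes, 236 had no overlap with the upper quartile. Of the genes without overlap, 60.7% were higher in AL as reported (221 against 143), 37.4% with the median of ratios (102 against 171) and 25.4% with the upper quartile (60 against 176). With a pseudocount of 10, the log2 FC of PGLYRP2 was 1.02 and that of ICAM1 -0.84.

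Leaving out single pigs gave log2 FC values from 1.40 to 2.41 for SPP1, from -1.80 to -1.21 for IL2RA, from 1.01 to 1.20 for IKBKG, from 1.67 to 2.49 for PGLYRP2 and from -1.87 to -1.16 for ICAM1. Between 4 and 5 of the 5 genes, and 368 to 411 of all genes, then had no overlap. With all pigs these counts were 4 and 364, and leaving out a pig can only keep or raise them. Of the 33 values of single genes without overlap when a pig was left out, 14 had an exact permutation p of 0.057 to 0.086: SPP1 without each AL pig, IL2RA without each AL pig or BI replicate 25, PGLYRP2 without each BI pig, and ICAM1 without AL replicate 44. Count tests with edgeR and DESeq2 had been planned and were not run: the table holds only called genes, and in 5 of the 8 pigs fewer than 100 values of 20 reads or fewer were there to accept the recovered reads as counts. No paired analysis was run, since the study describes randomly selected pigs of each breed and no matching between them.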
